A study of Homo sapiens with 6 samples.

Results

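FGFR1 and 3 of its ligands, FGF1, FGF2 and FGF5, were followed in PC9 cells and in their gefitinib-resistant derivative, PC9-GR. They were taken by gene symbol from the deposited expression table, where each of the 4 symbols has 1 row among 1705 genes. PC9 is a human lung adenocarcinoma cell line of epithelial origin with an exon 19 deletion in EGFR, and PC9-GR carries the same deletion. The resistant line was selected with gefitinib, an inhibitor of the EGFR kinase, from 0.5 to 10 µM, and was then kept in 10 µM drug. It spent 7 days without drug before RNA was taken, so the comparison is between lines and not between drug and no drug. PC9 is the parental control, and each group has 3 libraries of 1 line, titled replicates 1 to 3. The labels do not say whether PC9-GR is a clone or a pool of cells.

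Fibroblast growth factors are secreted proteins that bind receptor tyrosine kinases (FGFR1 to FGFR4) together with heparan sulfate chains on the cell surface. Ligand binding pairs receptors and turns on RAS and ERK signalling, which in turn induces feedback inhibitors such as the Sprouty proteins and DUSP6. FGF1 binds all FGF receptors, whereas FGF2 and FGF5 act mainly through the mesenchymal receptor isoforms. In EGFR-mutant lung cancer, FGFR1 and FGF2 are known as one of several routes by which cells can keep growing when EGFR is blocked.

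The table holds genes that the authors had selected as changed between these same 6 libraries, and the members' calls must be read with that in mind. Each listed gene has an authors' log2 ratio of at least 1.00 in size and a p-value of at most 0.0497 in the authors' deposited table. Values are FPKM, a level per kilobase of transcript and of library size, and sequencing depth is unknown because no counts are in the table. The FPKM of the listed genes summed to 28346 to 30541 in PC9, and the PC9-GR sums were lower, 16705 to 17114. In bulk RNA, fewer cells expressing a gene and less RNA per cell cannot be told apart.

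The start regions of the 3 ligand genes are shown because FGF2 and FGF5 were higher in PC9-GR and FGF1 was lower. The sequences are RefSeq's on GRCh38.p14, a build that the expression table does not name, and each stops before the first base of any GENCODE 29 transcript of the gene. FGF2 is shown from chr4:122826581.0-122826707.0 (plus strand, 127.0 bases), FGF5 from chr4:80266338.0-80266587.0 (plus strand, 250.0 bases) and FGF1 from chr5:142698071.0-142698320.0 (minus strand, 250.0 bases). Capitals mark the GC box GGGCGG, a binding motif of Sp1, on either strand.
FGF2: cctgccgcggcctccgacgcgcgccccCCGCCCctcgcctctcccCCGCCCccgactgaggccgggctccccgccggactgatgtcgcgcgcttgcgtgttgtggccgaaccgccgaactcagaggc
FGF5: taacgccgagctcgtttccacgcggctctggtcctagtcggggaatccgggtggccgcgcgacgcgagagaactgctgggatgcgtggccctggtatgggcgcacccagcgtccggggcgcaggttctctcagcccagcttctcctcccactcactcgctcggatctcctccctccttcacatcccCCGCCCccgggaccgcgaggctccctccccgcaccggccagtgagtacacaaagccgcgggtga
FGF1: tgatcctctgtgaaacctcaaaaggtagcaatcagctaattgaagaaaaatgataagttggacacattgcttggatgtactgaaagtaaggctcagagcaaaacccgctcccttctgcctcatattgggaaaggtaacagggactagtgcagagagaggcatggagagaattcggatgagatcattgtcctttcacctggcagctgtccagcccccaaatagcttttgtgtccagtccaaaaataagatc

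The FGF2 and FGF5 regions shown are richer in G and C than the FGF1 region shown, which does not hold for each of their other starts. The values below are for the 250 bases before the RefSeq start, which for FGF2 run beyond the 127 bases shown. There FGF2 had 75.2% G and C with 33 CpG pairs, FGF5 had 68.8% with 27, and FGF1 had 44.8% with 2. The median of 35116 RefSeq windows of that length was 58% G and C with 11 CpG pairs. The GC box occurred 3 times in the 250 bases of FGF2, with 2 of them in the bases shown. It occurred 1 time in the 250 bases of FGF5, and it is not in those of FGF1 (42.6% of windows hold it). The core promoter motif TATAAA, which 10.7% of windows hold, did not occur in any of the 3 regions shown. The AP-1 site TGANTCA, which 6.57% of windows hold, did not occur either. Both strands were searched for each motif. The E-box CACCTG, in 17.5% of windows, occurred 1 time in the FGF1 region and overlapped no other motif searched. FGF1 has 4 RefSeq starts and FGF5 has 2, of which the most upstream is shown in each case. The other FGF1 starts had 45.6%, 60.8% and 47.2% G and C, with 1 GC box at each of the last 2 and 1 AP-1 site at the last of them. The downstream FGF5 start had 47.2% with 3 CpG pairs, no GC box and 2 matches to TATAAA. The table does not say which start was used in these cells, so the regions were not tied to the values below.

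FGFR1, the receptor, was 2.69-fold higher in PC9-GR. It measured 14.2, 15.2 and 12.9 FPKM in PC9 replicates 1 to 3, and 33.5, 38.0 and 42.4 FPKM in PC9-GR replicates 1 to 3. The groups did not overlap, and the lowest PC9-GR library was 2.20 times the highest PC9 library. On the log2(FPKM + 1) scale the difference was 1.36 (SE 0.117, n = 3 per group, limma adjusted p = 3.23e-06). By an exact permutation test (two-sided), p was 0.1 for FGFR1 and for each ligand below, which is as low as 3 libraries per group can reach. The table places FGFR1 (ENSG00000077782) on chromosome 8 at 38268655 to 38326352, with no other listed gene in that locus.

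Scaling moved the size of the FGFR1 difference but not its direction. It was 2.13 when libraries were set to equal totals over the listed genes, 1.94 under quantile normalization and 1.07 with median-ratio scaling. Equal totals moved the median tested gene by 0.61 and median-ratio scaling moved it by -0.23. FGFR1 was called higher in each of the 14 alternatives, with limma adjusted p from 1.17e-07 to 5.13e-05.

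FGF2 (ENSG00000138685), a ligand without a classical secretion signal that is held by heparan sulfate in the matrix, was barely measured in PC9 and was 27.0-fold higher in PC9-GR. The PC9 libraries gave 0.230, 0.222 and 0.216 FPKM, and the PC9-GR libraries gave 6.65, 5.52 and 5.89 FPKM. The lowest PC9-GR library was 24.0 times the highest PC9 library, the widest gap among the 4 genes. The log2(FPKM + 1) difference was 2.52 (95% interval 2.24 to 2.79, n = 3 per group, limma adjusted p = 1.72e-07), the 28th highest of 1207 genes tested. It was 4.24 with a pseudocount of 0.1, since adding 1 to values near 0.2 FPKM compresses the change.

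FGF2 shares its locus in the table, chromosome 4 at 123747862 to 123844123, with NUDT6, a Nudix hydrolase gene. In GENCODE 29 the pair lie on opposite strands and overlap by 9540 bases. The library kit keeps strand, but the strand setting of the authors' counting is not given in the sources used here, so reads of the overlap may have been assigned to either gene. NUDT6 was 2.55-fold higher in PC9-GR, with 12.2, 10.9 and 12.03 FPKM in PC9, against 28.5, 28.9 and 32.0 FPKM in PC9-GR (limma adjusted p = 2.02e-06). The FGF2 value was 1.91 ± 0.117% of the NUDT6 value in PC9 and 20.3 ± 2.70% in PC9-GR (SD, n = 3 per group). This ratio, chosen after the values were seen, was higher in each PC9-GR library than in any PC9 library (two-sided exact permutation p = 0.1). What part of the FGF2 value comes from reads of the shared stretch was not tested.

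FGF5 (ENSG00000138675), a secreted ligand known as a brake on hair growth and as an oncogene, was 7.07-fold higher in PC9-GR at a low level. It measured 0.264, 0.171 and 0.110 FPKM in PC9, against 1.35, 1.21 and 1.30 FPKM in PC9-GR. Its log2(FPKM + 1) difference was 0.95 (95% interval 0.75 to 1.16, n = 3 per group, limma adjusted p = 6.09e-06) and 2.33 with a pseudocount of 0.1. The groups did not overlap. The table's locus for FGF5, chromosome 4 at 81187752 to 81884910, is 697159 bases long, against 70082 bases for the gene in GENCODE 29. No other listed gene lies in it. GENCODE 29 places a neighbour, CFAP299, on the same strand with an overlap of 961 bases, and CFAP299 was not analysed here.

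FGF1 (ENSG00000113578), the ligand that binds every FGF receptor, was lower in PC9-GR, by a margin that turned on 1 library and on the scaling. The PC9 libraries were uneven, at 1.29, 1.94 and 4.46 FPKM, and the PC9-GR libraries were close together at 0.936, 1.08 and 0.946 FPKM. Replicate 3 of PC9 was the high one, and the lowest PC9 library was only 1.19 times the highest PC9-GR library. The means were 2.56 ± 1.68 and 0.987 ± 0.0802 FPKM (SD, n = 3 per group), a 2.60-fold difference. The log2(FPKM + 1) difference was -0.74 (95% interval -1.35 to -0.14, limma adjusted p = 0.0213).

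Without PC9 replicate 3 the FGF1 difference was -0.38 (limma adjusted p = 0.0299), and with equal library totals it was -0.27 and was not called (limma adjusted p = 0.297). It was called in the other 12 alternatives that gave it a value, with limma adjusted p from 0.00348 to 0.0485. The authors' deposited table gives FGF1 a log2 ratio of -1.32 with a q-value of 0.122, against a q-value of 0.000285 for each of the other 3 genes. FGF1 shares its locus, chromosome 5 at 141689991 to 142077617, with SPRY4, which is lower too, but GENCODE 29 puts the 2 genes 265722 bases apart. SPRY4-AS1, on the opposite strand, overlaps FGF1 by 79824 bases and SPRY4 by 1163 bases there. With the strand setting unknown, its reads and those of FGF1 cannot be told apart in the overlap.

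**Figure D1:**
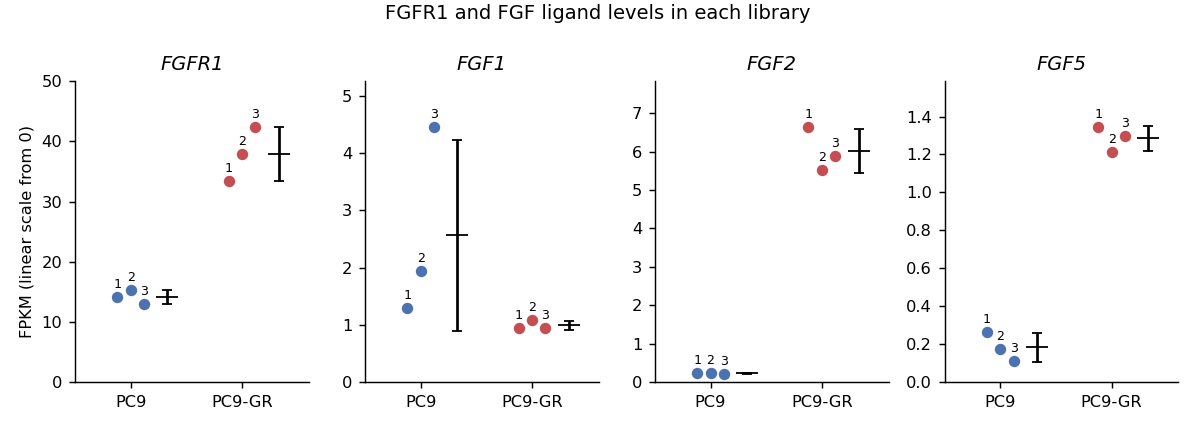
FPKM of FGFR1, FGF1, FGF2 and FGF5 (y axes, linear from 0, a separate scale per gene) in the 3 PC9 and 3 PC9-GR libraries; numbers are replicates, the black bar is the mean and the whisker 1 SD. FGFR1, FGF2 and FGF5 lie higher in each PC9-GR library, while FGF1 is lower there and its PC9 libraries run from 1.29 to 4.46 FPKM.

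In all, limma called 3 members higher and 1 lower. Of all 1207 genes tested, 48.4% were called higher and 51.3% lower, so a call by itself sets none of the members apart. Likewise, the libraries of the groups did not overlap for the 4 members, nor for 94.8% of the genes in the table. FGF2 and FGF5 reached the filter of 1 FPKM in 3 libraries only through the PC9-GR group, so their passing it already implied a difference. FGF1 reached it in 4 libraries and FGFR1 in 6.

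**Figure D2:**
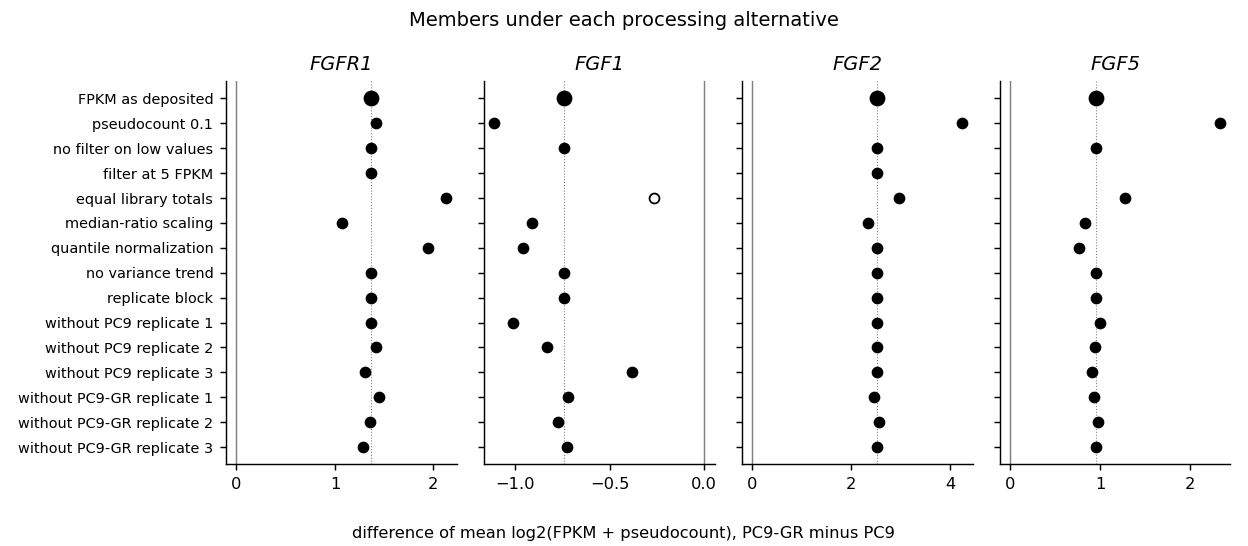
Difference of mean log2(FPKM + pseudocount) between PC9-GR and PC9 (x axes, a separate scale per gene) for each member under the values as deposited (large point) and each alternative (rows); filled points have a limma adjusted p under 0.05 and the open point does not. The one open point is FGF1 with equal library totals, at -0.27.

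Among the 3 listed ligands, the most abundant one differed between the lines. The other 19 of the 22 genes on the FGF ligand list were not analysed here, so the order below covers only these 3 and FGFR1. FPKM is a level per length, so genes can be ordered within a library. In PC9 the order was FGFR1, then FGF1, then FGF2 and FGF5, whose libraries overlapped (0.216 to 0.230 and 0.110 to 0.264 FPKM). In PC9-GR it was FGFR1, FGF2, FGF5 and FGF1, and no neighbours in that order overlapped.

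FGF1 made up 72.2%, 83.1% and 93.2% of the summed FPKM of the 3 ligands in PC9, and 10.5%, 13.8% and 11.6% in PC9-GR. FGF2 made up 12.9%, 9.51% and 4.51% in PC9 and 74.5%, 70.6% and 72.4% in PC9-GR. These shares come from 1 library each and do not depend on how libraries were scaled to each other. The sum itself was 1.78, 2.33 and 4.78 FPKM in PC9, against 8.93, 7.81 and 8.13 FPKM in PC9-GR. FGF5 made up 14.8%, 7.34% and 2.30% in PC9 and 15.1%, 15.5% and 15.9% in PC9-GR, so PC9 replicate 1 came close to the PC9-GR libraries.

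**Figure D3:**
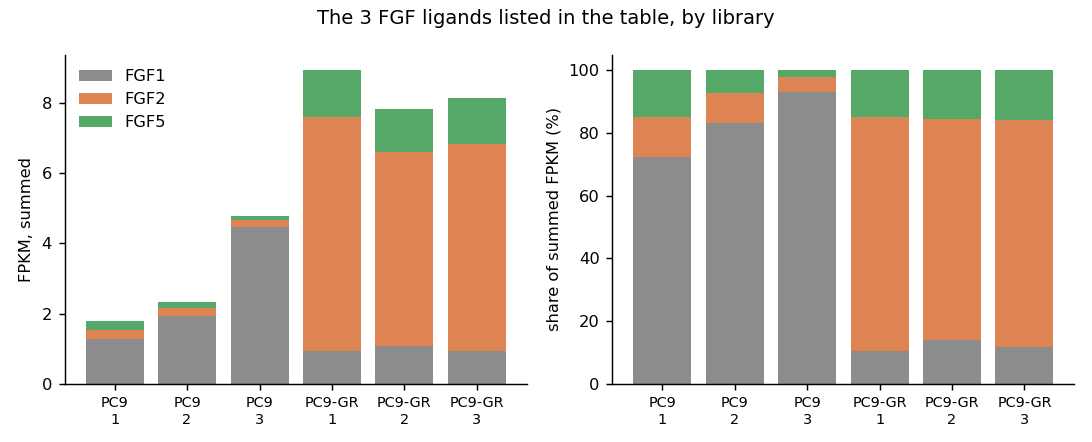
Summed FPKM of FGF1, FGF2 and FGF5 (left) and the share of each in that sum in percent (right) for each of the 6 libraries. FGF1 fills most of each PC9 bar and FGF2 most of each PC9-GR bar (70.6% to 74.5%).

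Set against the receptor in the same library, FGF2 was higher in PC9-GR and FGF1 was lower. The FGF2 value was 1.62%, 1.46% and 1.67% of the FGFR1 value in PC9 and 19.9%, 14.5% and 13.9% in PC9-GR. The FGF1 value was 9.07%, 12.7% and 34.5% of it in PC9 and 2.80%, 2.84% and 2.23% in PC9-GR. On the log2 scale with 1 FPKM added to each gene, the ratio to FGFR1 differed by 1.15 for FGF2 and by -2.11 for FGF1 (two-sided exact permutation p = 0.1 each, n = 3 per group). For FGF5 that difference was -0.41 with 1 FPKM added and 0.91 with 0.1 added, so its direction depended on the pseudocount. As a plain quotient, FGF5 was 1.28 ± 0.521% of FGFR1 in PC9 and 3.42 ± 0.520% in PC9-GR (SD, n = 3 per group).

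The rest of the pathway was taken from 10 lists of 148 genes, chosen with earlier results of these data known. Of these genes 18 are in the table, and 17 were tested, of which 8 were called higher and 9 lower. FGF2, FGF5, SDC2 and KL entered that count through 1 group alone. Over all genes tested 48.4% were called higher and 51.3% lower, so these calls do not set the pathway apart. The median log2(FPKM + 1) difference of the 17 genes was -0.74, against -0.63 over all genes tested. The lists of FGF-binding proteins (3 genes), heparan sulfate enzymes (25), signalling relay proteins (30) and regulators of FGFR splicing (8) have 0 members in the table. No statement on the receptor isoforms can be drawn from values per gene.

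Of the 22 genes on the FGF ligand list only the 3 described are in the table, and of 7 receptors and co-receptors FGFR1 and KL are. KL, the co-receptor of the hormone FGF23, fell 6.24-fold, with 4.67, 5.29 and 4.89 FPKM in PC9, against 0.670, 0.942 and 0.768 FPKM in PC9-GR (limma adjusted p = 1.41e-06). KL reached the filter only through the PC9 libraries, so passing it already implied a difference. Among 14 heparan sulfate proteoglycan cores, GPC1 and SDC2 are listed, and both were called higher, as were 48.4% of all genes tested. GPC1, a glypican anchored in the outer membrane leaflet, rose 2.02-fold from 72.6, 90.3 and 80.5 FPKM to 173.3, 173.7 and 145.5 FPKM. SDC2, a syndecan, rose 6.54-fold at a low level, from 0.242 ± 0.156 to 1.58 ± 0.316 FPKM (SD, n = 3 per group), and it reached the filter only through the PC9-GR libraries.

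Membrane proteins known to bind FGFR1 or FGFs moved in both directions. Of 11 such genes 5 are listed, with 3 called higher and 1 lower, in a table with 48.4% of tested genes called higher and 51.3% lower. N-cadherin (CDH2), which can stabilise FGFR1 at the surface, rose 10.6-fold from 2.16, 2.33 and 2.06 FPKM to 19.9, 23.9 and 25.4 FPKM (limma adjusted p = 9.83e-08). The integrin chain ITGAV rose 2.11-fold to 98.6 ± 10.8 FPKM and FLRT2 rose 2.14-fold to 3.39 ± 0.378 FPKM (SD, n = 3 per group). EPHA4, an ephrin receptor that can form a complex with FGF receptors, fell 4.31-fold from 9.28 ± 0.182 to 2.16 ± 0.453 FPKM. ITGB3, the partner of ITGAV, did not reach the filter, with a mean of 0.157 ± 0.0952 FPKM in the parental line and 0.845 ± 0.182 FPKM in the resistant line (SD, n = 3 per group, two-sided exact permutation p = 0.1).

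Of 13 feedback inhibitors of FGF and ERK signalling 4 are listed, namely SPRY1, SPRY2, SPRY4 and DUSP6, and the 4 were called lower, in a table where 51.3% of tested genes were called lower. Their median log2(FPKM + 1) difference was -1.10, against -0.63 over all genes tested. DUSP6, a phosphatase of ERK, fell 3.10-fold, with 32.9, 40.6 and 36.8 FPKM in PC9, against 8.66, 13.1 and 13.8 FPKM in PC9-GR. SPRY2 fell 2.43-fold, SPRY1 fell 2.38-fold and SPRY4 fell 2.09-fold. Of the 15 ERK-driven transcription targets, ETV4 and FOS are listed and were called lower. The ETS factor ETV4 fell 2.12-fold from 31.4 ± 2.85 to 14.9 ± 1.34 FPKM. FOS fell 6.45-fold and was uneven in both groups, with replicate 2 the highest in each. It measured 7.64, 36.1 and 14.6 FPKM in PC9, against 1.36, 4.87 and 2.82 FPKM in PC9-GR. With equal library totals SPRY1 (limma adjusted p = 0.0784), SPRY4 (limma adjusted p = 0.160) and ETV4 (limma adjusted p = 0.0623) were not called. DUSP6, SPRY2 and FOS were called in each alternative that gave them a value. FGFR1, FGF2 and FGF5 differed in the opposite direction to the listed feedback genes, while FGF1 and KL differed in the same direction as those genes. How these differences are linked was not tested.

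**Figure D4:**
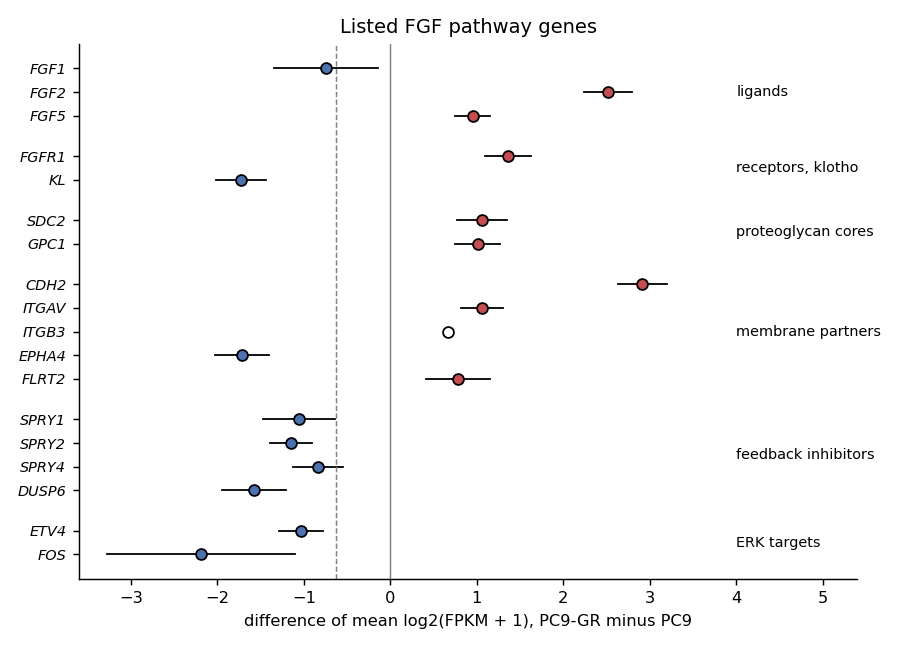
Difference of mean log2(FPKM + 1), PC9-GR minus PC9 (x axis), for the 18 listed FGF pathway genes by role; red points were called higher, blue points lower, the open point was below the filter, and lines are 95% intervals from limma. The dashed line is the median of all genes tested (-0.63), and the 4 feedback inhibitors and 2 ERK targets lie left of 0.

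FGFR1 was the most abundant receptor tyrosine kinase listed in PC9-GR. Of 58 such genes 11 are in the table, 7 were tested, and 3 were called higher (FGFR1, PDGFRB and STYK1) and 4 lower (ERBB2, EPHA4, EPHA10 and MST1R). With 48.4% of all tested genes called higher and 51.3% lower, this split does not set the kinases apart. EGFR is not among the 11, and the 47 kinases not listed were not analysed here. The order of levels thus covers only listed kinases. ERBB2, the EGFR partner, measured 47.0, 46.2 and 43.8 FPKM in PC9, above FGFR1 in each library. In PC9-GR it measured 19.3, 24.1 and 20.6 FPKM, below FGFR1 in each library. PDGFRB had a larger fold than FGFR1, but its level in PC9-GR was 3.28 ± 0.780 FPKM (SD, n = 3 per group), and it reached the filter only through that group. STYK1 rose 1.95-fold to 8.11 ± 0.531 FPKM. MST1R was not called with equal library totals (limma adjusted p = 0.276). AATK, EPHB6, ERBB4 and LTK were below the filter, with no library above 1.21 FPKM.

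Markers of cell type differed between the lines in both directions, as the members did, and their part in the values above was not tested. These calls stand in a table chosen for change, with 48.4% of tested genes called higher and 51.3% lower. Of 20 epithelial markers CLDN1 and OVOL1 are listed, and both were called lower (summed level 81.7 to 102.3 FPKM in PC9, against 24.6 to 34.2 FPKM in PC9-GR). Of 20 mesenchymal markers 8 are listed, and 8 were called higher, with a summed level of 45.1 to 54.3 FPKM in PC9, against 510.7 to 589.9 FPKM in PC9-GR. ZEB2, ACTA2 and, among the haematopoietic markers below, ITGAX reached the filter only through the PC9-GR libraries, so passing it already implied a difference. Of 9 endothelial markers 0 are listed, and of 10 fibroblast and mural markers PDGFRB alone is. Of 13 haematopoietic markers 5 are listed and 4 were called higher (CD68, ITGAM, ITGAX and CORO1A), with a summed level of 20.5 to 24.6 FPKM in PC9, against 46.2 to 57.0 FPKM in PC9-GR. LYZ, the fifth, was lower in PC9-GR but below the filter, at 0.760, 1.61 and 0.891 FPKM in PC9 and at 0.001 (the table's floor), 0.184 and 0.241 FPKM in PC9-GR. Its groups did not overlap. The remaining markers of each list, the defining epithelial genes EPCAM and CDH1 among them, were not analysed here.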

How the data were processed

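RNA of PC9 and PC9-GR cells was sequenced from strand-specific libraries, 3 per group, per the labels' protocols. TopHat and Cufflinks were used, per the submitters' processing notes; versions, settings, genome build and annotation were not given in the sources used here. Columns of the deposited table hold FPKM per library and per group, the authors' ratio and log2 ratio of PC9-GR to PC9, a p-value and a q-value, per the file headers. It also holds a variation score per group, per the file headers, which was not used. It lists only 1705 genes selected by the authors on these libraries, so each test here is conditioned on that selection. Since the table has no counts, no counting error is attached to any value.

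Library FPKM was analysed as log2(FPKM + 1). The filter of 1 FPKM in 3 or more libraries left 1207 genes (498 were left out). They were tested two-sided with limma 3.58.1 (R 4.3.3), using a trended prior variance, no covariate and Benjamini-Hochberg adjustment over all tested genes (called under 0.05). The limma step was tested on simulated data for 1207 genes. Exact permutation tests and ratios were computed in Python 3.11.15. Folds are ratios of mean FPKM. The members and lists were chosen with earlier results of these data known. Named genes are the members, all listed genes of the FGF and receptor kinase lists (up to 4 per direction in each FGF list), up to 3 per direction of each marker list, locus neighbours, and the 3 genes nearest each member in pattern. CORO1A, ZEB2, ACTA2, CFAP299, SPRY4-AS1, EPCAM and CDH1 are named outside that rule. The deviations of same-numbered libraries correlated weakly (-0.0977, 0.0822 and 0.164), so replicate numbers were not used as pairs. This need not hold for each gene. FOS had the same order of replicates in both groups. Its limma adjusted p was 0.00141, and 9.49e-06 with the replicate number as a block. Sequences are from the RefSeq promoter table, where 3 of the 4 members matched.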

Additional observations from a re-analysis of the deposited data

How the results depend on the processing

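FGFR1, FGF2 and FGF5 kept their direction and their call in each alternative that gave them a value (14, 14 and 13 of them), with log2 differences of 1.07 to 2.13, 2.33 to 4.24 and 0.77 to 2.33. FGF1 kept its direction in 13 alternatives and lost its call with equal library totals (-0.27), and leaving out 1 library gave -1.01 to -0.38. FGF1 and FGF5 have no value with a filter at 5 FPKM. The ratio of FGF5 to FGFR1 within a library reversed, from -0.41 to 0.91, with a pseudocount of 0.1. The ratio of FGF1 to SPRY4, chosen after the values were seen, was 0.098 and reversed to -0.0769 with a pseudocount of 0.1, and leaving out 1 library gave -0.15 to 0.48. Calls over the table were 584 higher and 619 lower, 234 and 393 with a filter at 5 FPKM, which leaves 629 genes, and 586 and 433 with equal library totals (57.5% of calls higher, against 48.5%). Of the pathway genes, 17 were called, and 12 to 18 over the alternatives. The 12 came with the filter at 5 FPKM, where FGF1, FGF5, KL, SDC2 and FLRT2 have no value. The 18 came without the filter on low values. With equal library totals 13 were called, as FGF1, SPRY1, SPRY4 and ETV4 lost their calls. With the replicate number as a replicate block, the 4 members were called as before (FGF1 limma adjusted p = 0.0134), and 586 genes were called higher and 619 lower. The numbers mark no known shared day, and 2 of 3 PC9 libraries correlated best with their own number. For the 56 other named genes, 734 values kept direction and call, 5 lost a call and 8 gained one, all 8 without the filter on low values. Named genes below the filter had only an exact test in each other alternative, and that test cannot reach a call here. Their kept calls among the 734 were therefore fixed in advance and say nothing on stability. The 8 gains came with the change from the exact test to limma, at unchanged log2 differences (for ITGB3, 0.671 in both). With 3 libraries per group no exact test can fall below 0.1.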

Other observations

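The genes whose pattern over the 6 libraries lay nearest to each member were taken by the smallest root mean square difference in log2(FPKM + 1), each gene set to 0 at its PC9 mean. For FGFR1 they were AKR1B15 (0.0587), PSG5 (0.0766) and STX2 (0.0836), and for FGF5 they were MYBL1 (0.0507), KIRREL (0.0514) and PAPSS2 (0.0644). For FGF2 they were MYPN (0.124), NLRP1 (0.143) and SULT1A1 (0.147). These 9 genes were called higher, as were 48.4% of all genes tested. Their direction was set by the choice, since they were picked for likeness to members that were higher. AKR1B15 and PSG5 reached the filter only through the PC9-GR libraries. AKR1B15, an aldo-keto reductase, is only 0.531 ± 0.138 FPKM in PC9, against 2.96 ± 0.517 FPKM in PC9-GR, so likeness here is of the log2 change and not of the level.

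FGF1 had no close match. Its nearest genes were COX6B2 (0.171), IER3IP1 (0.176) and SPINK6 (0.206), and each was highest in PC9 replicate 3, as FGF1 was. The choice by likeness to FGF1 over these same libraries favoured genes with that peak. It is therefore no separate observation on that library. COX6B2, a subunit of cytochrome c oxidase, measured 1.99, 2.22 and 5.01 FPKM in PC9, against 0.997, 1.03 and 0.980 FPKM in PC9-GR. IER3IP1 was at the floor of 0.001 FPKM in PC9 replicate 1 and in the 3 PC9-GR libraries, and it reached 2.37 FPKM in PC9 replicate 3. SPINK6 was at that floor in the 3 PC9-GR libraries. Why FGF1 and these genes were highest in PC9 replicate 3 was not tested.

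Listed genes beside the members along the chromosome moved in both directions. Around FGF2, the listed gene before it, BBS12, rose 2.08-fold (limma adjusted p = 0.00113), and the one after it, SPRY1, fell 2.38-fold at a distance of 473825 bases. Before FGF1 lies PCDH1, which fell 2.63-fold, and the listed gene after it is SPINK6, below the filter. Around FGFR1 the listed neighbours RP11-150O12.6 and RP11-675F6.3 were both called higher (from 0.806 ± 0.453 to 6.45 ± 2.29 and from 0.417 ± 0.181 to 1.90 ± 0.721 FPKM), at distances of 856953 and 74816 bases. RP11-675F6.3 reached the filter only through the PC9-GR libraries, so passing it already implied a difference. Of all tested genes 48.4% were called higher and 51.3% lower, so a call sets no neighbour apart. Around FGF5, LINC01088 and RASGEF1B were below the filter, at 0.387 ± 0.234 and 0.421 ± 0.0980 FPKM in PC9, against at 1.08 ± 0.196 and 0.146 ± 0.0110 FPKM in PC9-GR. Only genes chosen as changed are in the table, so unchanged genes between these were not analysed here.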
